A study of Mus musculus with 50 samples.

Results

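The 40 genes described here encode proteins of the lysosome, together with 3 transcription factors of the microphthalmia (MiT) family, which control many lysosomal genes. They were taken by gene symbol, and each symbol matched 1 of the 45792 rows of the count table. By role they comprise 10 cathepsins and other proteases, 7 proteins of the lysosomal membrane, 9 glycosidases, 6 lipid enzymes and cofactors, 5 subunits of the proton pump and the 3 MiT factors Tfeb, Tfe3 and Mitf. All 40 had enough reads to be tested in each of 7 comparisons between groups.

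RNA was sequenced from liver and liver tumours of male C3H/He mice, an inbred strain, harvested at 48 weeks. The mice received the American lifestyle (ALIOS) diet, rich in trans-fat and given with fructose in the drinking water, or a control diet, and some also received the liver carcinogen diethylnitrosamine (DEN). Mice without DEN gave 12 non-tumour samples of liver on the control diet (N1 to N12), 11 on ALIOS (N13 to N23), 13 tumours on ALIOS and 1 tumour on the control diet (T7); with DEN there were 8 tumours on ALIOS and 5 on the control diet. No liver of a DEN mouse was among the samples, so DEN and tumour tissue cannot be told apart in a comparison of DEN tumours with liver, and nothing in the labels tied a tumour to the mouse of a liver sample, so the p-values measure the spread between libraries.

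Lysosomes are acidic organelles in which hydrolases break down proteins, sugars and lipids delivered by endocytosis, phagocytosis and autophagy, and a proton pump in their membrane keeps the lumen acid. The MiT factors bind an E-box, the letters CACGTG, in the promoters of many lysosomal genes, and their entry into the nucleus is controlled by phosphorylation through the mTOR complex that assembles on the lysosome, so that their transcript level is not a measure of their activity. In liver, hepatocytes use lysosomes to digest autophagic cargo and lipid, and the resident macrophages (Kupffer cells) are rich in lysosomes and in several of the cathepsins.

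Promoter sequence is shown because the E-box is the motif that the MiT factors bind. RefSeq promoter windows, 250 bases before to 50 bases after a start site (GRCm38.p6), were found for 33 members, in 40 windows. Both strands were searched, which is a single search because each motif is its own reverse complement. CACGTG was in 27.5% of the member windows and in 7.15% of all 32851 windows, and the longer form TCACGTGA, which contains it, was in 15% and 0.974%. By gene, 11 of the 33 members had CACGTG and 6 of these had TCACGTGA. The TCACGTGA sites of those 6, and the CACGTG sites of Lamp1 and Glb1 nearest to the start, are given with the motif in capitals, on the strand of the gene:
Ctsa, chr2:164833749-164833778: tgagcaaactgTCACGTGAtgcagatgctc
Ctsa, chr2:164833766-164833795: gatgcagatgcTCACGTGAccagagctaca
Ctsd, chr7:142387908-142387937: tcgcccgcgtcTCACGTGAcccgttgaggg
Gla, chrX:134601215-134601244: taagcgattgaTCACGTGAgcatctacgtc
Gla, chrX:134601182-134601211: tgagatctcggTCACGTGAgcaactctcgg
Mcoln1, chr8:3500462-3500491: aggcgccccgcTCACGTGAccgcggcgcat
Atp6v0d1, chr8:105566050-105566079: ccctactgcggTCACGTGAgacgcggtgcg
Atp6v1a, chr16:44139373-44139402: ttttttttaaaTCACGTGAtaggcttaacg
Lamp1, chr8:13159134-13159163: acgtgaccacatCACGTGcggaacggagcc
Glb1, chr9:114401018-114401047: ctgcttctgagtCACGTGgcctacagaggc
Gaa, Naglu and Ctsl held CACGTG as well, and Lamp1 held it at 4 places. Ctsd and Mcoln1 also held CACGTG outside the longer form, at -245 and -71 from the start, which is not printed. The windows of Cd63, Tfeb, Tfe3 and Mitf held neither form. A match is a description of these letters and not a measured binding site.

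Each library held between 23798251 and 45751398 counted reads, so that sampling noise was small for all but the lowest members. The tumour T1 was left out, since its library held kidney transcripts: the kidney genes Kap and Umod were at 35347 and 1812 CPM (a library's counts scaled to a total of 1000000), against at most 1.65 and 0.188 CPM in the other tumours, and Alb, the hepatocyte albumin gene, was at 37.9 CPM against a median of 146371. In the other libraries 13 hepatocyte marker genes summed to between 79289 and 248200 CPM (the liver label), with none at 0 in a whole group. Of the DEN tumours, T24 on ALIOS lay outside the range of its group for 28 of the 40 members (18 above and 10 below), and T17 on the control diet for 21 (18 above and 3 below). T24 also had the lowest hepatocyte and the highest stellate cell marker sum of its group (79289 and 1320 CPM). For the members, calls that rest on T24 or T17 are given with and without them. The fold changes and calls of other genes, those of the wider lists and the markers, are given only with both libraries in.

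In the livers on the control diet, the highest members per length were Lamp1, a heavily glycosylated coat protein of the lysosomal membrane, with a median of 234 CPM per kb of exon, Psap, the precursor of the saposins, with 176, and Ctsd, the main aspartic protease, with 168 (the plot of levels per exon length). Their ranges over the 12 livers overlapped. The next were Ctsl, Ctsz and Ctsb, cathepsins with medians from 107 to 139 CPM per kb, again with overlapping ranges. The MiT factors were near the bottom, with medians of 2.24 for Tfe3, 1.35 for Tfeb and 0.822 CPM per kb for Mitf, and the ranges of Tfe3 and Tfeb did not overlap. Cd63, a tetraspanin of late endosomes and lysosomes, ranked 38 of 40 with 1.01, above Mitf and Ctsk. In the spontaneous tumours on ALIOS it ranked 9, with a median of 39.7 CPM per kb.

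**Figure D1:**
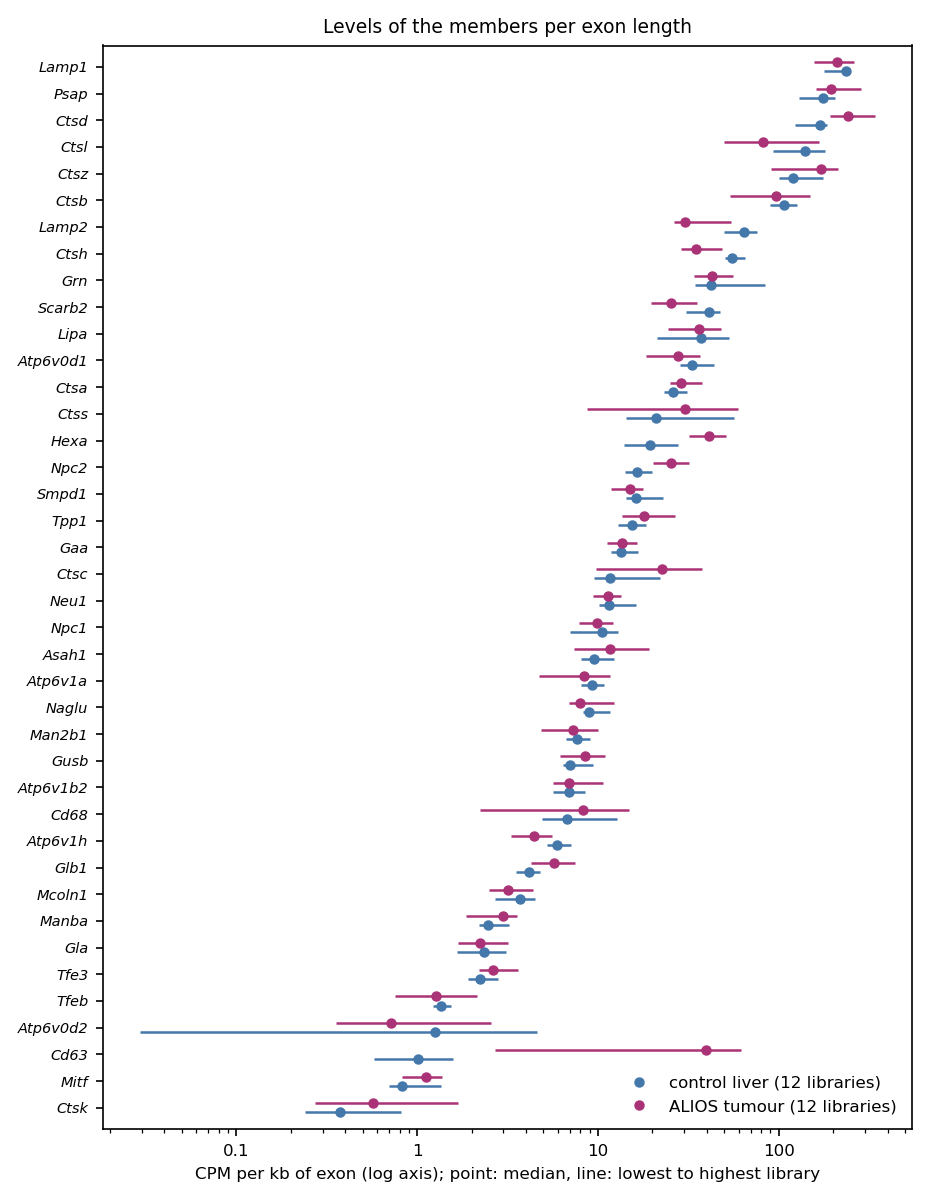
Levels of the 40 members in CPM per kb of exon (log axis), as the median (point) and the lowest and highest library (line) of the 12 control-diet livers (blue) and 12 spontaneous ALIOS tumours (purple), ordered by the control livers. The Cd63 median was 1.01 in livers and 39.7 CPM per kb in tumours. Lamp1 and Psap had overlapping ranges in the 2 groups, and Ctsd lay higher in the tumours (193 to 341) than in the livers (123 to 184 CPM per kb). The 2 groups differ in diet as well as in tissue. Ctsd was higher with diet in liver (log2 fold change 0.42), and it had no call in these tumours against ALIOS livers.

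Within a group most members varied little. The median SD of log2 CPM over the members was 0.185 in control livers, 0.168 in ALIOS livers, 0.271 in spontaneous tumours, 0.231 in control DEN tumours and 0.336 in ALIOS DEN tumours. Atp6v0d2, a pump subunit known from osteoclasts and macrophages, had the widest spread in 3 of the groups, from 0.0794 to 12.5 CPM among control livers, and Cd63 in the other 2.

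The ALIOS diet was compared with the control diet in non-tumour liver first. Of the 40 members, 10 were higher on ALIOS and none was lower (edgeR quasi-likelihood test, adjusted p under 0.05 over all genes, which is what higher and lower mean from here on), against 6.73% and 4.51% of the 13723 genes tested. The median log2 fold change of the members was 0.11, against -0.02 over all genes. The roles supplied the calls: 4 of 10 proteases, 2 of 7 membrane proteins, 2 of 9 glycosidases and 2 of 6 lipid enzymes and cofactors, with no call among the pump subunits or the MiT factors.

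Ctsb, a cysteine protease of the lysosome, had the smallest p. It ranged from 539 to 762 CPM (median 647) in control livers and from 688 to 1056 (median 824) in ALIOS livers, with 8 of 11 ALIOS livers above every control liver. The log2 fold change was 0.38 ± 0.07 (SE, adjusted p = 0.00324). Ctsd ranged from 290 to 434 (median 395) and from 392 to 720 CPM (median 483), again with 8 of 11 above every control, a log2 fold change of 0.42 ± 0.10 (adjusted p = 0.00914).

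Cd68, a membrane glycoprotein of macrophage lysosomes, ranged from 6.17 to 15.96 CPM (median 8.48) in control livers and from 7.28 to 25.8 (median 13.4) on ALIOS. The log2 fold change was 0.79 ± 0.18 (adjusted p = 0.00878), and 5 of 11 ALIOS livers lay above every control. Ctss, the cysteine protease that antigen-presenting cells use to process the invariant chain, ranged from 19.4 to 77.1 (median 28.3) and from 24.5 to 116 CPM (median 53.7), a log2 fold change of 1.01 ± 0.25 (adjusted p = 0.0122). Here the groups overlapped widely, with 2 of 11 ALIOS livers above the highest control, and 10 of 11 above the control median.

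The other 6 were Psap at 0.36 ± 0.09, Man2b1, an alpha-mannosidase, at 0.31 ± 0.08, Hexa, the alpha subunit of beta-hexosaminidase, at 0.49 ± 0.12, Cd63 at 1.14 ± 0.29, Npc2, a carrier of cholesterol in the lumen, at 0.32 ± 0.08, and Ctsa, protective protein and carboxypeptidase, at 0.19 ± 0.05 on the log2 scale. Cd63 ranged from 2.12 to 5.84 CPM (median 3.72) in control livers and from 2.40 to 23.7 (median 6.29) in ALIOS livers, and Ctss and Cd63 were the only called members to differ by at least 2-fold. The 3 MiT factors had log2 fold changes of -0.03 ± 0.06 (Tfeb), -0.14 ± 0.07 (Tfe3) and -0.03 ± 0.09 (Mitf), with adjusted p of 0.798, 0.176 and 0.874. When all groups were fitted together, which shares 1 estimate of the spread with the more variable tumours, 4 of the 10 calls were kept and Ctsb, Ctss, Cd68, Cd63, Psap and Ctsa were lost, with adjusted p from 0.0506 to 0.171.

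In bulk tissue, more cells of a type and more RNA per cell cannot be told apart. Of 20 macrophage markers, none of them a member, 14 were higher in ALIOS livers and none was lower, with C1qb at 0.90 ± 0.18 and C1qa at 0.83 ± 0.17 on the log2 scale. Their summed level ran from 436 to 969 CPM (median 594) in control livers and from 648 to 1858 CPM (median 1005) in ALIOS livers, with no marker at 0 in either group, and their part in the change of the members was not tested.

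Members were then set against these markers from liver to liver within a group, as the mean z score of the 20 markers. Over 40 members and 3 groups, 120 relations were computed, and 15 passed a permutation test of Spearman's rho (two-sided, 100000 resamples, adjusted p under 0.05): 2 in control livers, 7 in ALIOS livers and 6 in spontaneous tumours. All values came from the same libraries and share their scaling. Only members were put to this test, so the share of all genes that would pass is not known. Nothing about lysosome genes as a set is read from these counts. Ctss had rho 0.965 and r 0.967 in the 12 control livers (permutation p = 1e-05 for each, the smallest the test can give; adjusted p = 0.0012 and 0.0003). It had rho 0.909 and r 0.959 in the 11 ALIOS livers (permutation p = 0.00035 and 1e-05; adjusted 0.00825 and 0.0003), and r was 0.955 and 0.948 without the 2 livers farthest from the median score. Cd68 followed the same markers, with rho 0.923 and r 0.951 in control livers (permutation p = 3e-05 and 1e-05; adjusted 0.0018 and 0.0003) and rho 0.891 and r 0.941 in ALIOS livers (permutation p = 0.00055 and 1e-05; adjusted 0.00825 and 0.0003). Without the 2 farthest livers r was 0.895 and 0.875.

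The other 5 members that passed in ALIOS livers were Ctsb (rho 0.900, r 0.900), Glb1, a beta-galactosidase (rho 0.891, r 0.764), Asah1, acid ceramidase (rho 0.845, r 0.931), Npc2 (rho 0.791, r 0.842) and Mcoln1, a calcium channel of the lysosomal membrane, which ran the other way (rho -0.827, r -0.758). Their permutation p ran from 0.00037 to 0.0051 for rho and from 9e-05 to 0.00682 for r. The adjusted permutation p for rho ran from 0.00825 to 0.0408 with 11 livers, and for Glb1 the adjusted p for r was 0.0511. Without the 2 farthest livers r was 0.797, 0.790, 0.802, 0.641 and -0.758, in that order. Cd63 had rho 0.573 and r 0.589 in ALIOS livers (permutation p = 0.0713 and 0.0553; adjusted 0.231 and 0.202), which did not pass, and none of the MiT factors passed in any of the 3 groups.

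**Figure D2:**
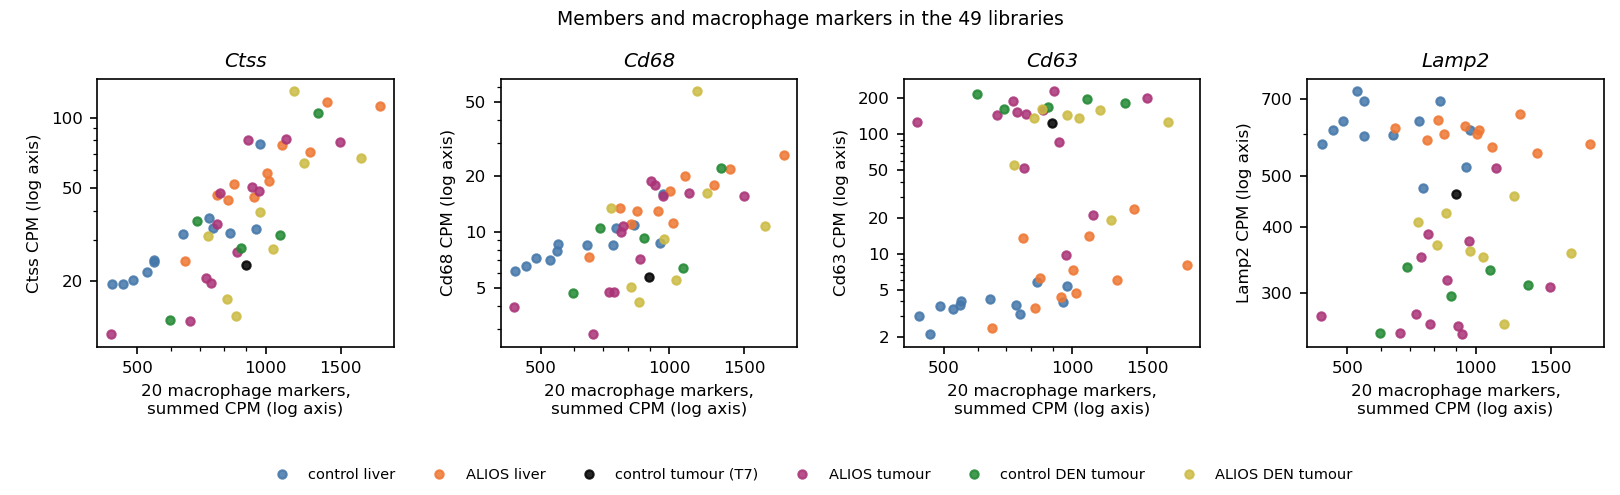
Level of Ctss, Cd68, Cd63 and Lamp2 (CPM) against the summed CPM of 20 macrophage markers, both on log axes, 1 point for each of the 49 libraries, coloured by group. Ctss and Cd68 climb with the markers within each liver group, while most tumours have more Cd63 (9.87 to 229 CPM) than the livers (2.12 to 23.7 CPM), with T2, T6 and T23 inside the range of the livers.

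The spontaneous tumours on ALIOS (12, without T1) were compared with the 11 ALIOS livers to ask how tumour tissue differs from liver within a diet. Members moved in both directions: 8 were higher and 13 lower, against 26.9% and 25.9% of the 14183 genes tested. Without N18, T5 or T12, 9 members were lower. Of all genes 3139 of 14322, 3135 of 14072 and 2965 of 14076 were then lower, in that order, and nothing is read from the counts of members. The median log2 fold change was -0.09 over the members and 0.01 over all genes. Among the membrane proteins 1 was higher and 3 lower, among the pump subunits 2 of 5 were lower and none higher, and 2 of 3 MiT factors were higher.

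Cd63 stood out from the other members. It ranged from 2.40 to 23.7 CPM (median 6.29) in ALIOS livers and from 9.87 to 229 CPM (median 146) in the tumours, with 10 of 12 tumours above every liver. T2, with 9.87 CPM, and T6, with 21.2 CPM, were the tumours inside the range of the livers. The log2 fold change was 3.90 ± 0.47, a 14.9-fold difference (adjusted p = 7.97e-07), and it ran from 3.79 to 4.18 with each library left out in turn. The control-diet tumour T7, a single library, was at 125 CPM.

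Lamp2, the other major glycoprotein of the lysosomal membrane and the receptor of chaperone-mediated autophagy, moved the opposite way. It ranged from 553 to 656 CPM (median 600.3) in ALIOS livers and from 251 to 518 (median 291) in the tumours, and the groups did not overlap. It was 1.88-fold lower, at -0.91 ± 0.11 on the log2 scale (adjusted p = 6.15e-07). Lamp1 was lower by a smaller amount, -0.24 ± 0.08 (adjusted p = 0.0132), and this call was lost without any of N16, N18, T5, T6, T12 or T13 (-0.19 to -0.17), with T1 kept in (-0.16) and without the filter on low counts (adjusted p = 0.0726). Scarb2, the receptor that carries glucocerebrosidase to the lysosome, ranged from 207 to 283 CPM (median 248) in livers and from 124 to 222 (median 158) in tumours, with 11 of 12 tumours below every liver and a log2 fold change of -0.57 ± 0.09 (adjusted p = 2.20e-05).

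The cathepsins divided. Ctsh, an aminopeptidase, ranged from 210 to 303 CPM (median 247) in livers and from 130 to 218 (median 157) in tumours, with 11 of 12 tumours below every liver and a log2 fold change of -0.55 ± 0.09 (adjusted p = 3.41e-05). Ctsl, an endopeptidase, was lower at -0.77 ± 0.17 (adjusted p = 0.000537) and Ctsb at -0.49 ± 0.13 (adjusted p = 0.00286). By contrast Ctsz was higher at 0.46 ± 0.13 and Ctsc, which activates serine proteases of granules, at 0.59 ± 0.22 (adjusted p = 0.00351 and 0.0272). Ctsc was no longer called with T1 kept in. Ctss and Cd68, which followed the macrophage markers in all 3 groups, had log2 fold changes of -0.57 ± 0.32 and -0.53 ± 0.29 and did not pass (adjusted p = 0.141 and 0.129).

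Among the glycosidases Hexa ranged from 33.5 to 74.3 CPM (median 58.5) in livers and from 63.5 to 102 (median 81.6) in tumours, and 8 of 12 tumours lay above every liver (log2 fold change 0.49 ± 0.11, adjusted p = 0.000735). Glb1 was higher as well, at 0.34 ± 0.11, while Man2b1, Naglu, which cleaves heparan sulphate, and Gla, alpha-galactosidase A, were lower at -0.43 ± 0.10, -0.31 ± 0.09 and -0.27 ± 0.11. With T1 kept in Man2b1 was not called (adjusted p = 0.0802). Gla was close to the threshold (adjusted p = 0.0479), and its call was lost in 18 of the 23 fits that left out a library, those without N13, N14, N20, T3 or T6 being the exceptions (adjusted p up to 0.171). It was also lost with T1 kept in, without the filter on low counts, with DESeq2 size factors and by the DESeq2 Wald test (adjusted p from 0.0529 to 0.128). Of the lipid enzymes and cofactors Npc2 was higher at 0.27 ± 0.10. Grn, progranulin, and Smpd1, acid sphingomyelinase, were lower at -0.30 ± 0.11 and -0.18 ± 0.07. The call of Grn was lost without any of N18, N19, N23, T5, T6 or T12 (adjusted p up to 0.0940), and that of Smpd1 without any of N16, N18, N22, N23, T4, T5, T6, T12 or T13, where its log2 fold change was between -0.15 and -0.11. Without the filter on low counts neither Grn nor Smpd1 was called (adjusted p = 0.0714 and 0.120), and with T1 kept in Smpd1 was at -0.10 (adjusted p = 0.285).

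Of the pump subunits Atp6v1h, of the cytosolic sector, ranged from 50.7 to 67.1 CPM (median 57.0) in livers and from 32.3 to 54.2 (median 43.0) in tumours, with 11 of 12 tumours below every liver (log2 fold change -0.40 ± 0.07, adjusted p = 8.94e-05). With T1 kept in its adjusted p was 0.386. Atp6v0d1, of the membrane sector, was lower at -0.30 ± 0.09 (adjusted p = 0.00653). Atp6v0d2, Atp6v1a and Atp6v1b2 did not pass.

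Tfe3 ranged from 15.7 to 22.9 CPM (median 18.9) in ALIOS livers and from 20.3 to 33.4 (median 24.4) in the tumours, and 7 of 12 tumours lay above every liver. On the log2 scale it differed by 0.37 ± 0.08 (adjusted p = 0.000319). Mitf, which is best known from melanocytes and osteoclasts, ranged from 4.53 to 5.86 (median 5.37) and from 5.11 to 8.53 CPM (median 6.98), with 9 of 12 tumours above every liver and 0.36 ± 0.09 on the log2 scale (adjusted p = 0.00151). Tfeb had no call: its median was 7.60 CPM in livers and 7.24 in tumours, but the tumours ran from 4.26 to 12.1 CPM and the livers from 6.63 to 8.86 (log2 fold change -0.03 ± 0.14, adjusted p = 0.871).

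Markers of macrophages differed in the same comparison. In the spontaneous tumours 11 of the 20 were lower than in ALIOS livers, with Timd4 at -1.44 ± 0.39 and Vsig4 at -1.47 ± 0.41, and 2 were higher, Cd14 at 2.56 ± 0.42 and Mpeg1 at 0.69 ± 0.19 on the log2 scale. Their sum ran from 433 to 1498 CPM (median 817), with none at 0 in the group, and their part in the changes was not tested. Within the 12 tumours 6 members followed the marker score by the permutation test of rho: Ctss (rho 0.930, r 0.932), Cd68 (0.860, 0.924), Man2b1 (0.853, 0.796), Psap (0.818, 0.757), Ctsb (0.797, 0.694) and Grn (0.776, 0.776), with permutation p from 5e-05 to 0.00416 for rho (adjusted 0.002 to 0.0357) and from 3e-05 to 0.00993 for r. For Ctsb the adjusted p for r was 0.0544. Without T8 and T14, the tumours farthest from the median score, r was 0.871, 0.870, 0.772, 0.667, 0.752 and 0.688. Lamp2 and Cd63 did not follow it in the tumours (rho 0.231 and -0.203, permutation p = 0.470 and 0.526; adjusted 0.746 and 0.783; r 0.414 and -0.437, permutation p = 0.180 and 0.154; adjusted 0.424 and 0.393).

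**Figure D3:**
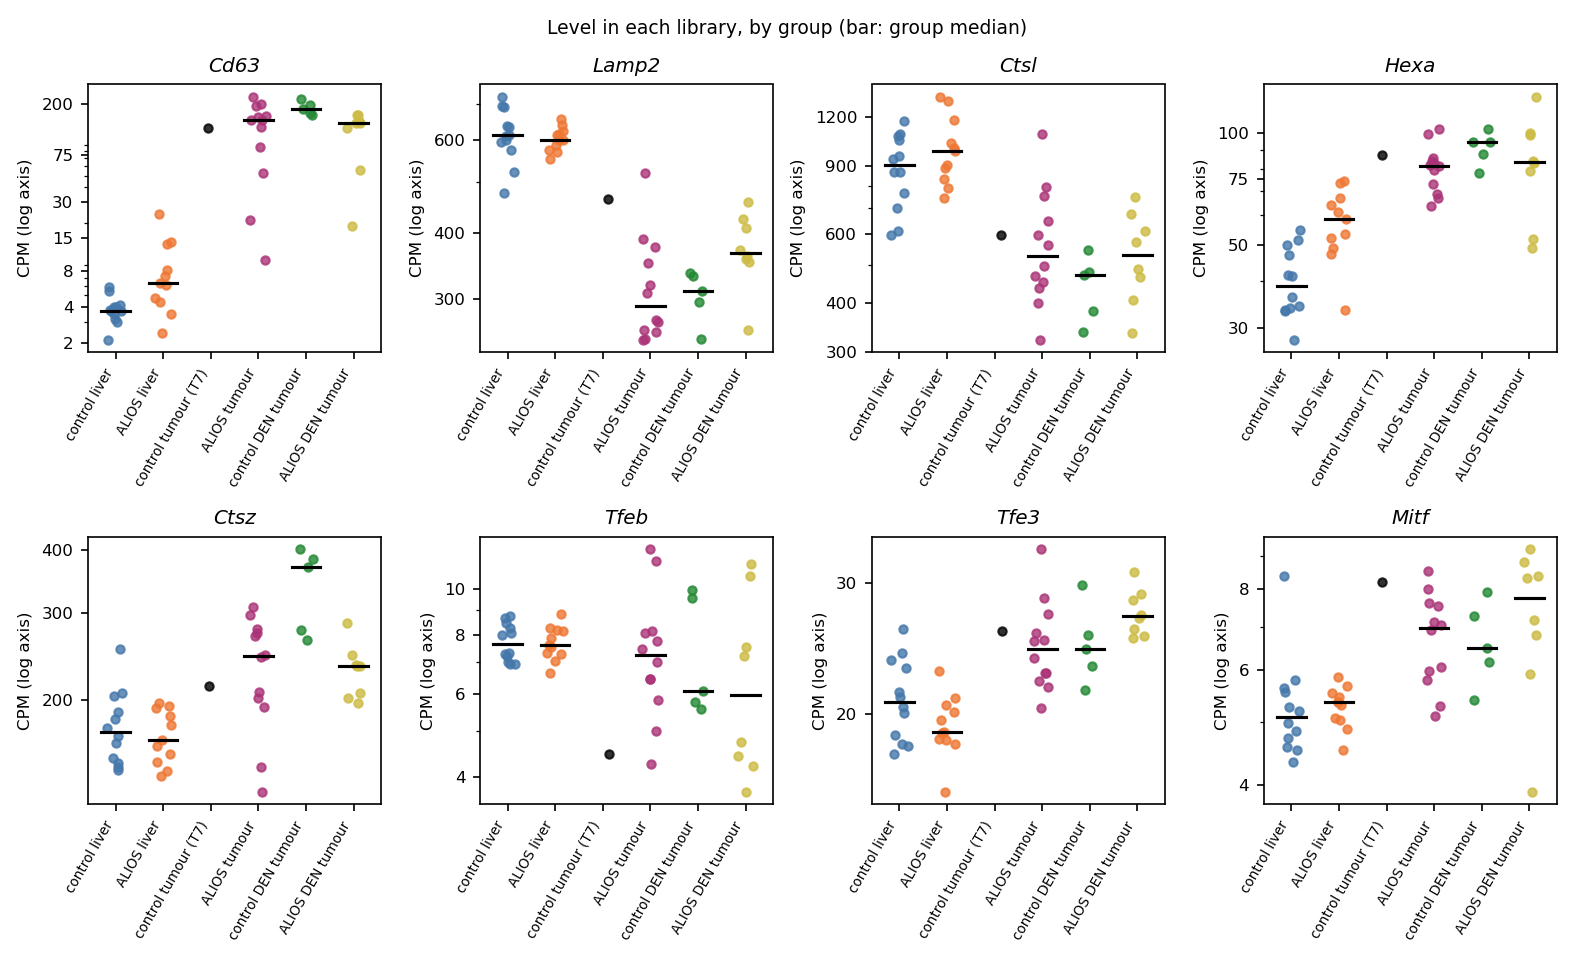
CPM (log axis) of Cd63, Lamp2, Ctsl, Hexa, Ctsz, Tfeb, Tfe3 and Mitf in each of the 49 libraries, by group, with a bar at the group median. Lamp2 in the ALIOS tumours (251 to 518 CPM) lies below every ALIOS liver (553 to 656 CPM), and the tumours spread more widely for Tfeb (4.26 to 12.1 CPM) than the ALIOS livers (6.63 to 8.86 CPM).

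The 8 tumours of DEN-treated mice on ALIOS were compared with the same 11 ALIOS livers, so the controls are shared with the comparison before. Here 9 members were higher and 7 lower, against 27.7% and 19.8% of the 14434 genes tested. With DESeq2 size factors in place of TMM the split was 6 higher and 8 lower, as Ctsd, Gusb and Atp6v1b2 were lost and Atp6v0d1 was gained. Cd63 ranged from 19.1 to 162 CPM (median 137), with 7 of 8 tumours above every liver and T23, at 19.1 CPM, inside their range. It was 14.3-fold higher, a log2 fold change of 3.83 ± 0.43 (adjusted p = 1.08e-06).

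Lamp2 and Scarb2 did not overlap with the livers. Lamp2 ranged from 262 to 458 CPM (median 366), -0.62 ± 0.09 on the log2 scale (adjusted p = 2.75e-05), and Scarb2 from 118 to 163 (median 145), -0.71 ± 0.08 (adjusted p = 1.17e-06). Mcoln1 was lower at -0.29 ± 0.07. Of the proteases Ctsz ranged from 197 to 286 CPM (median 234), against 141 to 198 (median 167) in livers, with 7 of 8 tumours above every liver (0.50 ± 0.09, adjusted p = 0.000157). Ctsl ranged from 336 to 746 (median 530.1), against 745 to 1352 (median 981), and 7 of 8 tumours lay below every liver (-0.83 ± 0.16, adjusted p = 0.000299).

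Hexa and Glb1 were higher at 0.60 ± 0.17 and 0.32 ± 0.09, and Naglu and Smpd1 were lower at -0.31 ± 0.09 and -0.24 ± 0.07. Atp6v1h ranged from 40.4 to 50.3 CPM (median 42.8) and lay wholly below the livers (-0.34 ± 0.06, adjusted p = 8.25e-05). Tfe3 ranged from 25.3 to 31.1 (median 27.1) and lay wholly above the livers, which reached 22.9 CPM (0.56 ± 0.07, adjusted p = 2.61e-06). Mitf ranged from 3.91 to 9.22 (median 7.74), with 7 of 8 tumours above every liver and T24 below every liver (0.53 ± 0.13, adjusted p = 0.00250). Tfeb ran from 3.73 to 11.3 CPM (median 5.97) with no call (-0.14 ± 0.18, adjusted p = 0.548). The remaining calls, Ctsd at 0.38 ± 0.15, Gusb, beta-glucuronidase, at 0.29 ± 0.11 and Atp6v1b2 at 0.31 ± 0.11, had adjusted p from 0.0319 to 0.0423. Each was lost with any of several libraries left out: Ctsd without T15, T16, T22, T24 or T26, Gusb without T15, T16, T22, T26 or T27, and Atp6v1b2 without T16, T24 or T26, where its log2 fold change was as low as 0.16. All 3 were also lost with DESeq2 size factors, by the DESeq2 Wald test, without the filter on low counts and with all groups fitted together (adjusted p from 0.0511 to 0.121).

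The calls of this comparison depended on T24. Its level was far above the other 7 DEN tumours on ALIOS for Cd68 (56.9 CPM, against 4.20 to 16.1), Psap (1271, against 443 to 603), Atp6v0d2 (17.7, against 0.562 to 2.48), Ctss (130, against 14.1 to 67.3) and Ctsh (347, against 146 to 198). Without T24 the members called numbered 25, 11 higher and 14 lower, of which 14 were among the 16 called with it, and of all 14506 genes then tested 29.8% were higher and 22.6% lower. The 7 that were then lower and had not been were Ctsh at -0.46, Ctsb at -0.37, Man2b1 at -0.36, Grn at -0.32, Cd68 at -0.70, Atp6v0d1 at -0.38 and Atp6v0d2 at -1.40 on the log2 scale. Those newly higher were Ctsc, Manba, Neu1 and Tpp1, at 0.15 to 0.69. Of the 20 macrophage markers 2 were higher and 2 lower in this comparison, and their part in it was not tested. T24's macrophage markers summed to 1162 CPM, within the range of its group (731 to 1677 CPM), and its stellate markers to 1320 CPM, the highest of the group, which had a median of 229.

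On the control diet the 5 DEN tumours were compared with 12 control livers. This comparison had the most members higher, 17, with 6 lower, against 27.3% and 24.4% of the 14731 genes tested. The median log2 fold change of the members was 0.22, and 0.03 over all genes. The calls included 6 of 10 proteases, 4 of 9 glycosidases and 3 of 6 lipid enzymes and cofactors on the higher side.

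Cd63 was at 182, 196, 168, 217 and 162 CPM in T17 to T21, against 2.12 to 5.84 in the livers. This was a 49.6-fold difference, 5.63 ± 0.15 on the log2 scale (adjusted p = 1.61e-15). Hexa was at 102, 87.6, 94.4, 94.3 and 78.1 CPM, all above the livers, which ran from 27.8 to 55.0 (1.22 ± 0.13, adjusted p = 3.14e-07). Glb1 was at 23.8, 23.5, 22.5, 25.2 and 14.7 CPM, against 10.7 to 14.4 in livers (0.88 ± 0.10, adjusted p = 1.03e-06). For all 3 the groups did not overlap, though T21 came within 1 CPM of the livers for Glb1.

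Ctsz was at 276, 265, 403, 371 and 384 CPM, above every liver (145 to 254; 0.97 ± 0.13, adjusted p = 3.35e-06). Lamp2 was at 311, 332, 297, 252 and 336 CPM, below every liver (475 to 723; -0.96 ± 0.11, adjusted p = 5.76e-07). Ctsh was at 183, 155, 192, 154 and 155 CPM, below every liver (227 to 293; -0.56 ± 0.09, adjusted p = 2.93e-05). Ctsl at 480.0, 547, 382, 338 and 472 CPM was also below every liver (599 to 1171; -0.96 ± 0.17, adjusted p = 0.000117). Scarb2 was at 209, 201, 166, 131 and 162 CPM, and 3 of the 5 lay below every liver (193 to 298; -0.52 ± 0.11, adjusted p = 0.000897).

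Further proteases were higher: Ctsk, the collagen-degrading cathepsin of osteoclasts, at 1.84 ± 0.33, Ctsc at 1.04 ± 0.22, Ctsd at 0.78 ± 0.13, Ctsa at 0.57 ± 0.08 and Tpp1, a tripeptidyl peptidase, at 0.39 ± 0.09 on the log2 scale. Ctsk rested partly on T17, with 5.43 CPM against 1.16 to 1.94 in the other 4 tumours, and its log2 fold change was 1.25 at the lowest with a tumour left out. Of the lipid genes Npc2 and Asah1 were higher at 0.58 ± 0.11 and 0.57 ± 0.12 and Psap at 0.39 ± 0.12, and Smpd1 was lower at -0.28 ± 0.10. Npc1, the membrane partner of Npc2 in cholesterol export, was higher at 0.41 ± 0.15, a call lost without T20, where it was 0.29. The call of Psap was lost without T17, at 0.25, and with all groups fitted together (adjusted p = 0.0777).

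Tfe3 was at 25.5, 24.5, 21.5, 23.2 and 29.8 CPM, against 17.6 to 26.02 (median 20.7) in livers. The groups overlapped, with 1 tumour above every liver and all 5 above the liver median (0.29 ± 0.10, adjusted p = 0.0213), and the call was lost without T21, at 0.19, and without the filter on low counts (adjusted p = 0.0641). Mitf was at 7.90, 7.26, 5.41, 6.17 and 6.49 CPM, inside the range of the livers (4.34 to 8.38, median 5.09; 0.37 ± 0.14, adjusted p = 0.0292), and its call was lost without any of T17, T18, T20 or T21 (0.30 to 0.36), without the filter (adjusted p = 0.0727) and with all groups fitted together (adjusted p = 0.0509). Tfeb was at 5.56, 5.78, 9.94, 9.53 and 6.09 CPM, against 6.93 to 8.74 (median 7.66) in livers. It thus had 2 tumours above and 3 below every liver, and no call (-0.03 ± 0.13, adjusted p = 0.886).

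The calls of Manba, a beta-mannosidase, and Gusb (both 0.24 on the log2 scale) were lost without any of T17, T18, T20 or T21 (0.18 to 0.25), with DESeq2 size factors, by the DESeq2 Wald test, without the filter on low counts and with all groups fitted together (adjusted p from 0.0603 to 0.173 in the last 4), and that of Atp6v1h (-0.23) without any of T17 to T20 (-0.26 to -0.17). Of the macrophage markers 4 were higher and 6 lower, their sum ran from 597 to 1327 CPM (median 874), with T17 the highest and none at 0, and their part in these changes was not tested. T17 was the highest of its group for Ctss (105 CPM, against 13.7 to 36.2) and Cd68 (22.1, against 4.69 to 10.52), which had no call.

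**Figure D4:**
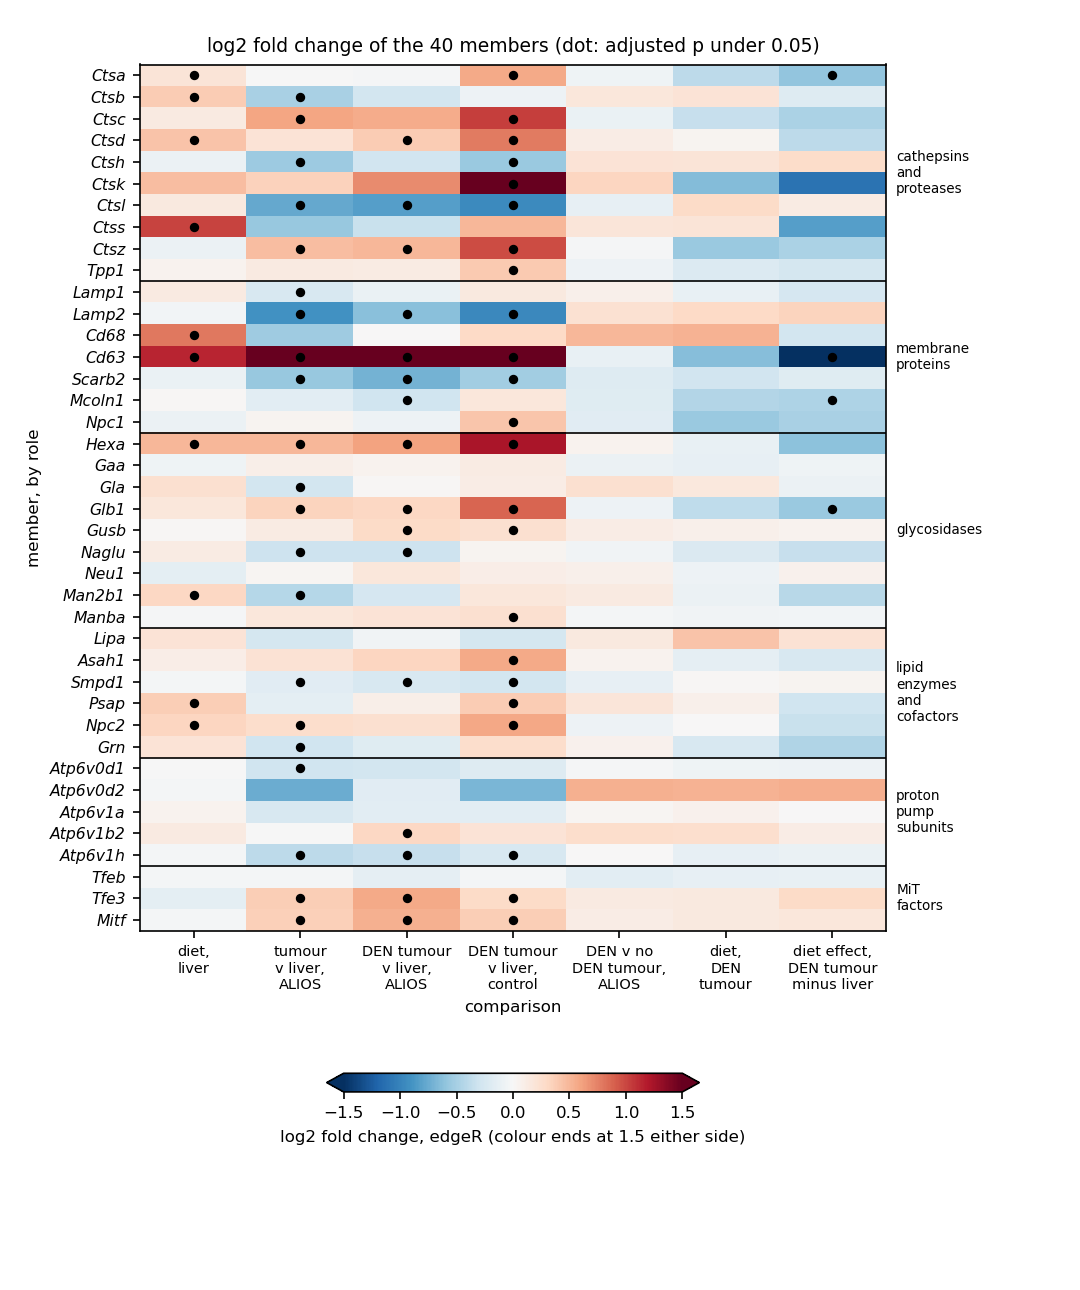
Log2 fold change of the 40 members (rows, by role) in the 7 comparisons (columns), in red where higher and blue where lower in the group named first, with a dot at each of the 74 calls. Cd63 is off the colour scale at 3.83 to 5.63 in the 3 comparisons of tumour with liver, and the columns DEN against no DEN tumours and diet in DEN tumours hold no dot.

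DEN tumours and spontaneous tumours on ALIOS were then compared with each other. No member was called, and no gene was called in either direction (0.0% and 0.0% of 14845 genes), while DESeq2 called 86 genes and the fit of all groups together 403. No member had an unadjusted p under 0.05, and neither of those fits called a member. The members' log2 fold changes ran from -0.19 (Scarb2) to 0.53 (Atp6v0d2), with SE from 0.08 to 0.55, so differences of that size were within the spread of the libraries. Cd63 had medians of 137 and 146 CPM.

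The diet was compared within DEN tumours, 8 on ALIOS against 5 on the control diet. No member was called, against 0.0% of 14944 genes higher and 0.0134% lower. At an unadjusted p under 0.05 there were 7 members. The share of all genes at that threshold was not computed, so nothing is read from this count. DESeq2 called Ctsz and Mcoln1, both lower on ALIOS, among 152 of 16756 genes called. The fit of all groups together called Ctsa, Ctsz, Mcoln1 and Npc1, all lower, among 296 of 17728 genes. The log2 fold change was -0.55 ± 0.14 for Ctsz (adjusted p = 0.256) and -0.44 ± 0.11 for Mcoln1 (adjusted p = 0.267). For Cd63 it was -0.64 ± 0.38 (adjusted p = 0.727).

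Whether the diet difference in DEN tumours was unlike that in liver was tested by the interaction of diet and tissue over the 36 libraries of these 4 groups. No liver came from a DEN mouse, so tissue here stands for tumour and DEN together, which cannot be told apart. For 4 members the difference passed, against 1.23% of 15606 genes lower and 1.04% higher. In all 4 the log2 fold change with ALIOS was lower in DEN tumours than in liver. For Ctsa the livers ran from 109 to 146 CPM on the control diet and from 117 to 156 on ALIOS. The DEN tumours were at 162, 141, 196, 198 and 180 CPM on the control diet and ran from 102 to 188 (median 127) on ALIOS. The log2 fold change with ALIOS was 0.19 ± 0.05 in liver and -0.39 ± 0.16 in DEN tumours, and the difference was -0.59 ± 0.13 (adjusted p = 0.0166).

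For Glb1 the difference was -0.56 ± 0.14 (adjusted p = 0.0262), with 0.17 ± 0.07 in liver and -0.38 ± 0.13 in DEN tumours. For Cd63 it was -1.79 ± 0.49 (adjusted p = 0.0395), with 1.14 ± 0.29 and -0.64 ± 0.38. For Mcoln1, at 20.3 to 34.0 and 23.8 to 32.2 CPM in control and ALIOS livers, the DEN tumours were at 27.2, 26.2, 35.2, 36.1 and 25.02 on the control diet and at 18.5 to 24.6 CPM on ALIOS, wholly below them, and the difference was -0.47 ± 0.13 (adjusted p = 0.0423). Ctsa, the member with the smallest p, kept its call with each DEN tumour left out. Without T24 Lamp2 also passed, in the other direction at 0.39 (adjusted p = 0.0356), and Man2b1 at -0.54 (adjusted p = 0.0147). Of 15540 genes 329 were then higher and 403 lower. Without T22 Npc1 passed at -0.65 (adjusted p = 0.0340). With all groups fitted together Cd63, Glb1 and Mcoln1 were lost (adjusted p from 0.0513 to 0.0965). Without the filter on low counts Cd63 and Mcoln1 were lost (adjusted p = 0.0550 and 0.0862). The number of calls fell to 1 without T17 or T20 and to 2 without T18 or T19. Over all genes calls fell too, from 162 higher and 192 lower with every library in. They were 58 and 116 without T17, 66 and 125 without T18, 140 and 143 without T19, and 77 and 114 without T20. Nothing is read from the counts of members. The call of Cd63 was also lost without T25, and that of Mcoln1 without T16 or T27.

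Genes overlapping a member in the annotation could share its reads. Where the overlapping gene is on the opposite strand, this depends on whether strand was used in counting, which is not stated, and Tmppe is on the same strand as Glb1, where strand cannot separate them. Exons of Ctsa overlap those of Pltp and Neurl2, Ctsb those of Fdft1, Ctsz those of Nelfcd, Lamp1 those of Grtp1, Npc1 those of Rmc1, Glb1 those of Tmppe, Grn those of Fam171a2, Hexa those of Tmem202 and Atp6v1h those of Rgs20, so the values of these members are uncertain to that extent. Cd63 (chr10:128900989-128912822), Lamp2 (chrX:38401357-38456454), Scarb2, Tfeb (chr17:47737030-47792419), Tfe3 (chrX:7762560-7775202) and Mitf (chr6:97807052-98021349) overlap no such gene (Gencode M21, GRCm38).

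Calls were also counted by the E-box in the promoter window. Of the 11 with CACGTG, 2 were higher with the diet in liver and none lower, 1 was higher and 5 lower in spontaneous tumours, 2 higher and 3 lower in DEN tumours on ALIOS, and 3 higher and 1 lower in DEN tumours on the control diet. Of the 22 without it, 7 were higher with diet, 7 higher and 5 lower, 6 higher and 3 lower, and 12 higher and 3 lower, in the same order. The shares of all tested genes called higher and lower were 6.73% and 4.51%, 26.9% and 25.9%, 27.7% and 19.8%, and 27.3% and 24.4%, and nothing is read from the split. Of the members printed above with TCACGTGA, Ctsa and Ctsd were higher with diet in liver and in DEN tumours on the control diet. Ctsd was also higher in DEN tumours on ALIOS, and Mcoln1 was lower there. Gla and Atp6v0d1 were lower in spontaneous tumours, and Ctsa and Mcoln1 passed the interaction of diet and tissue. Atp6v1a had no call in the main analysis of any comparison. The calls of Gla, and of Ctsd in DEN tumours on ALIOS, were lost in several fits, as given above.

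A wider set of 92 lysosome genes, not members, gives the setting, of which 90 were tested. With diet in liver 11 were higher and 6 lower, against 6.73% and 4.51% of all genes tested. Pla2g15, a lysosomal phospholipase, was higher at 0.55 ± 0.12 and Ctsw at 1.44 ± 0.35, while Galc, which degrades galactosylceramide, was lower at -0.78 ± 0.16. Of the membrane proteins Laptm5, a protein of blood cells, was higher at 1.02 ± 0.22, with Mfsd12 at 0.42 ± 0.09 and Laptm4b at 0.28 ± 0.08, and Ctns, the cystine exporter, was lower at -0.18 ± 0.06. Of the sorting genes M6pr was higher at 0.17 ± 0.05 and Sort1, sortilin, lower at -0.76 ± 0.14, with Vps11 at -0.14 ± 0.04.

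In spontaneous tumours 13 of these genes were higher and 25 lower, in DEN tumours on ALIOS 16 and 24, and in DEN tumours on the control diet 26 and 17. Of all genes tested 26.9% were higher and 25.9% lower, 27.7% and 19.8%, and 27.3% and 24.4%, in the same order. These shares belong beside the counts of each list below, and nothing is read from the counts themselves. Among the hydrolases (5 higher and 10 lower of 32 in spontaneous tumours, 8 and 10 in DEN tumours on ALIOS, 16 and 5 on the control diet) Idua, Gm2a and Galns, which act on glycosaminoglycans and gangliosides, were the higher genes with the smallest p in each: Galns was at 0.86 ± 0.18, 1.14 ± 0.20 and 1.57 ± 0.13, in that order. Hyal1, a hyaluronidase, was lower at -1.44 ± 0.25, -1.35 ± 0.24 and -1.95 ± 0.15. Other lower hydrolases were Ctso at -0.55 ± 0.07 and Rnaset2b at -1.34 ± 0.25 in spontaneous tumours, and Galc at -1.47 ± 0.24 and Pla2g15 at -0.89 ± 0.18 in DEN tumours on the control diet.

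Of 19 further membrane proteins tested, 2 were higher and 3 lower in spontaneous tumours, 1 and 3 in DEN tumours on ALIOS and 4 and 4 on the control diet. Clcn7, the chloride transporter of the lysosome, was lower at -0.75 ± 0.12, -0.59 ± 0.16 and -0.89 ± 0.12, and Tmem175, a channel, at -0.36 ± 0.09, -0.29 ± 0.10 and -0.38 ± 0.12. Gpnmb, a glycoprotein of lysosome-stressed macrophages, was higher in DEN tumours on the control diet, at 4.47 ± 0.87. Of the 13 other pump subunits 1 was higher and 3 lower, 2 and 3, and 1 and 1: Atp6v0a1, which helps target the pump, was higher at 0.74 ± 0.15, 0.90 ± 0.17 and 1.45 ± 0.13, and Atp6v1e1 was lower at -0.40 ± 0.06, -0.33 ± 0.08 and -0.32 ± 0.09.

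Of the 9 sorting genes 3 were higher and 3 lower in spontaneous tumours, 3 and 2 in DEN tumours on ALIOS and 2 and 2 on the control diet. Sort1 was higher at 0.997 ± 0.21, 1.34 ± 0.20 and 0.54 ± 0.13, and Igf2r, the large mannose 6-phosphate receptor, at 0.68 ± 0.17, 1.205 ± 0.18 and 0.98 ± 0.12, while Gnptg, a subunit of the enzyme that makes the mannose 6-phosphate tag, was lower at -0.32 ± 0.07, -0.32 ± 0.09 and -0.40 ± 0.09. These comparisons share controls in part, and each gene's values are set side by side.

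Of the 17 tested genes of a list around the MiT factors (the Rag, Ragulator, folliculin and mTOR genes, subunits of calcineurin, and the family member Tfec), 2 were higher and 6 lower in spontaneous tumours, 2 and 6 in DEN tumours on ALIOS and 3 and 5 on the control diet. Rragd, a Rag GTPase through which the MiT factors are handed to mTOR, was higher at 1.46 ± 0.32, 1.11 ± 0.38 and 3.03 ± 0.25, and Lamtor3, of the Ragulator scaffold, at 0.41 ± 0.09, 0.47 ± 0.08 and 0.32 ± 0.08. Rragc, the paralogue of Rragd, was lower at -0.32 ± 0.06, -0.33 ± 0.08 and -0.21 ± 0.06. With diet in liver Lamtor3 and Flcn, folliculin, were lower at -0.23 ± 0.06 and -0.34 ± 0.11. Rragd and Plbd2 were the genes of this wider set to pass the interaction of diet and tissue, at -1.91 ± 0.50 and -0.58 ± 0.13 (adjusted p = 0.0338 and 0.0141). Of all genes tested 1.04% were higher and 1.23% lower in that interaction. None of the wider set was called between DEN and spontaneous tumours or by diet within DEN tumours.

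The remaining marker lists place these values. The summed level ran from 143 to 389 CPM for 10 endothelial, 117 to 1320 for 10 stellate cell, 8.63 to 322 for 7 cholangiocyte, 1.81 to 18.3 for 6 T cell and 1.15 to 21.8 CPM for 7 neutrophil genes over the 49 libraries. In control DEN tumours against liver 6 of 10 stellate genes were higher and 2, Dcn and Lrat, lower, and 4 of 7 cholangiocyte genes were higher and none lower. In ALIOS livers against control livers 3 of 10 stellate and 3 of the 6 tested cholangiocyte genes were higher and none lower. There 2 of the 3 tested T cell genes were higher, and 1 of 10 endothelial genes was lower. Of 13 hepatocyte genes 2 were higher and 7 lower in spontaneous tumours, 2 and 5 in DEN tumours on ALIOS, and 2 and 6 on the control diet. Of 10 endothelial genes 4 were higher and 1 lower, 4 and 1, and 5 and 2, in that order. The part of these cell types in the changes of the members was not tested. The 6 kidney genes summed to between 4.73 and 18.6 CPM in control DEN tumours, all of it from Slc12a1, and to at most 0.108 CPM in control livers. The 6 members Atp6v0d2, Atp6v1a, Gaa, acid alpha-glucosidase, Lipa, lysosomal acid lipase, Neu1, a sialidase, and Tfeb, had no call in the main analysis of any of the 7 comparisons. The DESeq2 Wald test called Atp6v0d2 lower in DEN tumours on ALIOS (-1.30, adjusted p = 0.000482) and in spontaneous tumours (-0.74, adjusted p = 0.0497). All of these but Tfeb were also called in some tumour comparison with a library left out.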

How the data were processed

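The deposited table holds raw counts of reads per gene for 50 libraries. The authors sequenced stranded mRNA libraries with paired reads of 100 bases, aligned these (STAR, 2-pass mode, mm10), and assigned reads to Gencode M6 exons by HTSeq in its intersection-nonempty mode. Tool versions and the strand option are not given in the sources used here. T1 was left out, leaving 49 libraries of 23798251 to 45751398 counts, so counting error was small for all but the lowest members (10 to 38 counts of Ctsk in control livers, and as few as 2 of Atp6v0d2).

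Groups came from the sample labels. Each comparison was fitted over all genes with edgeR 4.0.16 (R 4.3.3): filterByExpr on the groups compared, TMM, glmQLFit and glmQLFTest, with Benjamini-Hochberg adjustment over all genes tested and a call at an adjusted p under 0.05. SE is the log2 fold change divided by the square root of F. CPM are TMM-scaled over the 49 libraries, and exon lengths and positions came from Gencode M21. DESeq2 1.42.0, other normalization, filter, fold and sample choices were tried. Scripts were tested on simulated data. Correlations used scipy 1.17.1 with 100000 resamples.

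Values per library are given for the MiT factors and for the called members with the smallest p, up to 4 in each direction and comparison, and other members by their log2 fold change. Of the wider lists up to 3 called genes in a direction are named. A gene of these lists is not reported here. Members and lists were chosen with earlier results of these data known.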

Additional observations from a re-analysis of the deposited data

Results flagged for a closer look

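For 10 of 80 sets of values (40 members in each group of DEN tumours) a single library lay far from the rest by Dixon's test, where chance gives about 1 in 20, or about 4. In the 8 DEN tumours on ALIOS the library was T24 each time. It was highest for Ctsh (347 CPM, next 198), Psap (1271, next 603), Atp6v0d2 (17.7, next 2.48) and Atp6v1b2 (81.2, next 52.5). It was lowest for Lamp1 (480.5 CPM, next 589) and Lamp2 (262, next 352). In the 5 DEN tumours on the control diet T21 was lowest for Glb1 (14.7 CPM, next 22.5) and Npc2 (87.4, next 133), T20 was lowest for Smpd1 (38.4, next 45.0), and T17 was highest for Atp6v0d2 (7.18, next 1.48).

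For 4 members the diet difference in DEN tumours was unlike that in liver by the test of the interaction: Ctsa by -0.59, Glb1 by -0.56, Cd63 by -1.79 and Mcoln1 by -0.47 on the log2 scale.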

How the results depend on the processing

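No call of a member changed direction. Over the 74 calls and their alternatives there were 1325 values, of which 1194 stayed past the threshold and 131 did not. With all groups fitted together, 4 members were called for diet in liver (10 in the main analysis), 4 for diet in DEN tumours (0) and 1 for the interaction (4). A change of at least 2-fold left 2 for diet in liver, 1 in spontaneous tumours, 1 in DEN tumours on ALIOS, 4 in DEN tumours on the control diet and 1 for the interaction. The DESeq2 Wald test called 2 for diet in DEN tumours, and with no filter on low counts 2 passed the interaction. The cause was not tested. With a library left out, calls ranged from 13 to 25 in DEN tumours on ALIOS (25 without T24) and from 1 to 6 for the interaction (1 without T17 or T20, 2 without T18 or T19). With T1 kept in, 15 members were called in spontaneous tumours. Members that followed the macrophage markers numbered 12 to 15 over the alternatives. Over all genes, DESeq2 called 2451 for diet in liver (main 1542, all groups 623), 86 between DEN and spontaneous tumours (0, 403), 152 for diet in DEN tumours (2, 296) and 646 for the interaction (354, 220). No paired analysis was possible because the numbers of livers and tumours are names that no 2 groups share. With 5 to 12 libraries a group, small differences between tumours may be missed.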
